A study of Homo sapiens with 8 samples.

Results

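The unfolded protein response genes described here are 10 genes of the IRE1 and XBP1 arm of the stress response of the endoplasmic reticulum (ER), or genes that XBP1 and ATF6 are known to induce: ERN1, XBP1, DNAJB9, PDIA4, HYOU1, CRELD2, SDF2L1, HERPUD1, SEL1L and EDEM1. They were taken by gene symbol from a table of 60282 genes. All 10 were found once, and all 10 passed the filter on low values that left 14073 genes for testing. The cells were SK-UT-1, an established line from a human uterine leiomyosarcoma, a malignant smooth muscle tumor. One group of 4 libraries came from cells given the vehicle DMSO, and the other group of 4 came from cells given 5 µM TP-472, an inhibitor of the bromodomain proteins BRD9 and BRD7, for 48 h. No genotype differs between the groups, and a single line limits what the samples can stand for. The methods speak of biological replicates for the experiments in general, but the labels do not tie the libraries to separate cultures, so p-values measure only the spread between these libraries. In RNA from whole cultures, a change in every cell and a change in a share of the cells cannot be told apart.

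When unfolded proteins build up in the ER, the membrane sensor IRE1, encoded by ERN1, cuts the XBP1 messenger RNA so that it encodes an active transcription factor. Another sensor, ATF6, is freed by proteolysis, and PERK, the sensor of the remaining arm, slows translation and favors ATF4. XBP1 and active ATF6 raise chaperones that fold proteins in the ER lumen and the machinery of ER-associated degradation, which takes failed proteins out to the proteasome. Values per gene count all transcript forms together, so the cut and uncut forms of XBP1 were not told apart.

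XBP1 and ATF6 act through short promoter motifs, which were searched for in the promoters of these genes. The motifs searched on both strands were the ER stress response element ERSE (CCAAT, then any 9 bases, then CCACG), its shorter form ERSE-II (ATTGG, then any 1 base, then CCACG) and the core of the unfolded protein response element, UPRE (TGACGTGG). RefSeq promoters on GRCh38.p14, running from 250 bases before to 50 bases after the start, were found for all 10 genes. ERSE or ERSE-II lay in the promoters of 5 of the 10, against 0.131% of 35116 promoters. The 10 genes include known targets of XBP1 and ATF6, so their choice favored such matches and the contrast is not a test. The count for the 10 is of genes, and the share over all is of single promoters. The matches are printed 5′ to 3′ on the strand of the gene, with the motif letters in capitals, and a motif named as reversed reads on the other strand.
XBP1, ERSE, chr22:28800598-28800636, minus strand: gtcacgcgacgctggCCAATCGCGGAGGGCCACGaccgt
CRELD2, ERSE reversed, chr22:49918539-49918587, plus strand: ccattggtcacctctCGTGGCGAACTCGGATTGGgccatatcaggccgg
HERPUD1, ERSE-II, chr16:56932010-56932047, plus strand: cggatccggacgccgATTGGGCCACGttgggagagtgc
SDF2L1, ERSE-II reversed, chr22:21642099-21642139, plus strand: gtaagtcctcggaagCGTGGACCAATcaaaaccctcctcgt
HYOU1, ERSE-II reversed, chr11:119057259-119057299, minus strand: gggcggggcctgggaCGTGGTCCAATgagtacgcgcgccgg
HYOU1, UPRE core and ERSE-II reversed, chr11:119057365-119057408, minus strand: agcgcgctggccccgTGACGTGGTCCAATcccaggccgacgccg
The UPRE core of HYOU1 overlapped its farther ERSE-II match, and that core lay in 0.729% of all promoters. The windows of XBP1, HERPUD1, SDF2L1 and HYOU1 lie outside the GENCODE gene, and that of CRELD2 lies inside its gene but outside its annotated exons. A match is a description of letters in the window, and the windows of the other 5 genes, ERN1, DNAJB9, PDIA4, SEL1L and EDEM1, did not hold these letters.

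The libraries held between 32574716 and 38545695 estimated counts. Vehicle replicate 3 stood apart from its group. Its median Spearman correlation with the other vehicle libraries across genes was 0.914, whereas the other vehicle libraries had 0.988 to 0.989 and the TP-472 libraries 0.993 to 0.997. Vehicle replicate 3 was the lowest vehicle library for 5 of the 10 genes and the highest for 4. Results are given with all 8 libraries, and for the 10 genes and many others also without vehicle replicate 3. Levels are CPM, counts divided by library size and scaled by the trimmed mean of M values (TMM). A gene is said to have risen or fallen where the Benjamini-Hochberg adjusted p from edgeR's quasi-likelihood test was under 0.05, and a differentially expressed gene also changed by more than 1.5-fold.

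The identity of the cells was checked first. The smooth muscle genes ACTA2, TAGLN and CALD1 were present, with ACTA2 at 145.7 to 176.8 CPM in the vehicle libraries and 104.7 to 112.3 CPM in the TP-472 libraries. DES, which encodes desmin, was low at 3.01 to 3.49 CPM in the vehicle libraries, and MYH11, a defining gene of mature smooth muscle, was at 0 in 3 of the 4 vehicle libraries and reached 0.264 CPM with TP-472. Of the 8 smooth muscle markers tested of 9, 4 fell (ACTA2, TAGLN, DES and LMOD1) and none rose, where 19.1% of all tested genes fell and 17.2% rose, and their summed level was 790 to 1191 CPM in the vehicle libraries and 678 to 743 CPM in the TP-472 libraries. Their part in the results below was not tested.

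Secretory and blood cells, which can carry a high unfolded protein response, left little trace. Among 4 plasma cell markers, JCHAIN and TNFRSF17 were at 0 in every vehicle library, MZB1 stayed under 0.5 CPM, and SDC1, which other cells also make, was the most abundant at 33.7 to 55.3 CPM in the vehicle libraries. The summed level of the 4 leukocyte markers was 0.450 to 0.724 CPM in the vehicle libraries and 0.802 to 1.07 CPM with TP-472. Nearly all of it was CD14, and CD3E was at 0 in all 8 libraries. The 3 endothelial markers summed to 0.0554 to 0.144 CPM with vehicle and 0.414 to 0.581 CPM with TP-472. Both sums were higher in every TP-472 library than in any vehicle library, and none of these markers passed the filter for testing. Epithelial markers summed to 17.5 to 23.1 CPM in the vehicle libraries and 20.4 to 26.8 CPM with TP-472, where KRT18 rose and KRT19 fell.

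Exposure to TP-472 changed 4 of the 10 genes, and not all in one direction. XBP1, SDF2L1 and HERPUD1 rose, PDIA4 fell, and the other 6 did not pass the test. Against these 3 of 10 that rose and 1 of 10 that fell, 17.2% of all tested genes rose and 19.1% fell, 36.3% together. SDF2L1 alone passed both the adjusted p and the 1.5-fold limit, a call made for 26.9% of tested genes (12.0% higher, 14.9% lower). The median log2 fold change over the 10 genes was 0.17, beside -0.026 over all genes tested. The summed level of the 10 genes was 692 to 746 CPM in the vehicle libraries and 704 to 734 CPM with TP-472, so the total overlapped between the groups. Without vehicle replicate 3, 5 of the 10 rose and 2 fell, where 28.6% and 28.4% of all tested genes did so (57.0% together), and none of the 10 passed both limits, which 25.5% of tested genes passed (12.0% higher, 13.4% lower). This value of 0 of 10 stands beside 7 of 10 that passed edgeR's adjusted p alone in the same fit.

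**Figure D1:**
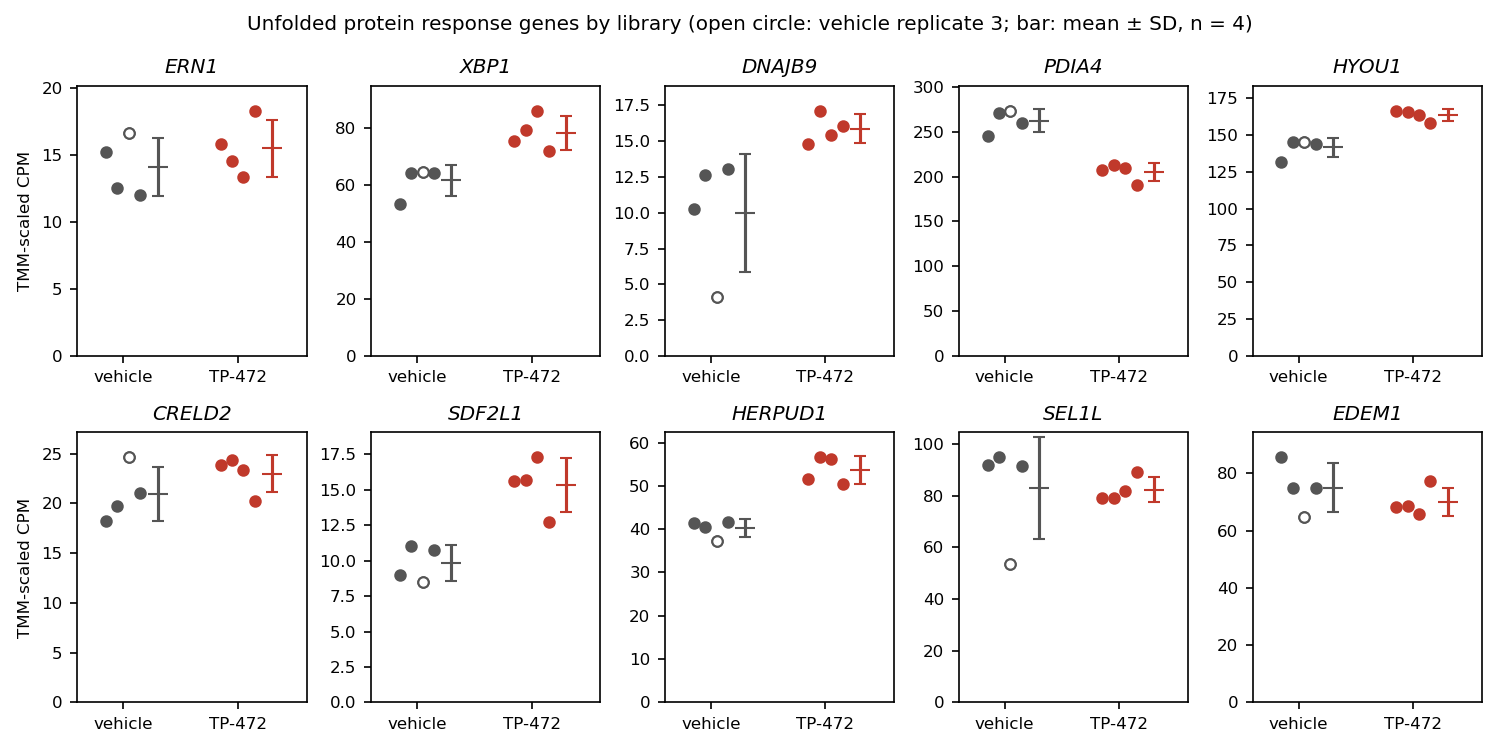
Level of each of the 10 genes in TMM-scaled CPM in the 4 vehicle and 4 TP-472 libraries, 1 point per library, with the mean ± SD beside the points; the open circle is vehicle replicate 3. SDF2L1, HERPUD1, XBP1, HYOU1 and DNAJB9 sit higher in all TP-472 libraries than in any vehicle library, PDIA4 sits lower, and the open circle is far below the other vehicle libraries for DNAJB9 and SEL1L.

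The sensor gene was measured first. ERN1 (chromosome 17, 64039142 to 64130819, minus strand, GRCh38) encodes IRE1, the kinase and ribonuclease that senses unfolded proteins. Its level was 15.2, 12.5, 16.6 and 12.1 CPM in vehicle replicates 1 to 4 and 15.8, 14.5, 13.3 and 18.3 CPM in TP-472 replicates 1 to 4. The groups overlapped, with the lowest values in vehicle replicates 2 and 4. The log2 fold change was 0.14 ± 0.154 (SE), and its adjusted p from edgeR was 0.502. It was 0.23 without vehicle replicate 3 and 0.047 without TP-472 replicate 4 (adjusted p = 0.152 and 0.842).

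XBP1 (chromosome 22, 28794555 to 28800597, minus strand), the transcription factor that IRE1 activates, was at 53.2, 64.0, 64.6 and 64.2 CPM in the vehicle libraries. In the TP-472 libraries it was at 75.2, 79.3, 86.0 and 71.9 CPM. The groups did not overlap, and vehicle replicate 1 was the lowest. The mean rose from 61.5 ± 5.55 to 78.1 ± 6.06 CPM (SD, n = 4 each), which edgeR put at 0.35 ± 0.108 (SE) on the log2 scale, adjusted p = 0.0343. The adjusted p was 0.00577 without vehicle replicate 3. Of the 4 genes that changed, XBP1 kept its call in the fewest alternative fits, 11 of 21. It was lost in 6 of the 8 fits that left out a library. In those 6 the adjusted p ran from 0.0529 to 0.111 and the log2 fold change from 0.28 to 0.37. When the trend of fold change with GC content was removed, the log2 fold change was 0.17 with an adjusted p of 0.367. The longest annotated transcript of XBP1 is 41.5% GC.

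Of the 5 lumen chaperones and folding enzymes, SDF2L1 rose and PDIA4 fell, while DNAJB9, HYOU1 and CRELD2 did not pass the test with all 8 libraries (17.2% of all tested genes rose and 19.1% fell). In the fit without vehicle replicate 3, 3 rose and 1 fell (28.6% and 28.4% of all tested genes). SDF2L1 (chromosome 22, 21642261 to 21644298, plus strand), a lumen cofactor of the chaperone BiP and its J-domain partners, was at 8.98, 11.0, 8.48 and 10.7 CPM in the vehicle libraries. With TP-472 it was at 15.6, 15.7, 17.3 and 12.7 CPM. The highest vehicle library was below the lowest TP-472 library. The group means, with SD over 4 libraries, were 9.81 ± 1.27 CPM for vehicle and 15.3 ± 1.92 CPM for TP-472. SDF2L1 had a log2 fold change of 0.64 ± 0.146 (SE, adjusted p = 0.00989, edgeR), and it was 0.58 with an adjusted p of 0.00281 without vehicle replicate 3, just under 1.5-fold. SDF2L1 passed the adjusted p limit in all 21 alternative fits. Its longest annotated transcript is 65.5% GC, and its log2 fold change was 0.98 after the GC trend was removed.

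PDIA4 (chromosome 7, 149003062 to 149028641, minus strand), a disulfide isomerase of the lumen, was the most abundant of the 10. It was at 245.5, 270.3, 273.5 and 259.9 CPM in the vehicle libraries and at 207.4, 213.3, 209.6 and 190.2 CPM in the TP-472 libraries. The highest value under TP-472 was below the lowest value under vehicle, and TP-472 replicate 4 was the lowest of all. The log2 fold change was -0.35 ± 0.0928 (SE, adjusted p = 0.0177, edgeR), and -0.33 with an adjusted p of 0.00185 without vehicle replicate 3. Leaving out TP-472 replicate 1 or replicate 3 gave adjusted p-values of 0.0532 and 0.0535, with a log2 fold change of -0.37 in each. PDIA4 passed the adjusted p limit in 16 of 21 alternative fits.

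HYOU1 (chromosome 11, 119044189 to 119057202, minus strand) encodes an ER chaperone of the HSP70 superfamily that exchanges nucleotide on BiP. Its vehicle libraries had 131.6, 145.4, 144.9 and 143.9 CPM, and its TP-472 libraries had 166.5, 165.5, 163.6 and 157.7 CPM. The groups did not overlap, and the spread within each was narrow. The log2 fold change of 0.21 ± 0.087 (SE) did not pass with all 8 libraries (adjusted p = 0.0898, edgeR) and passed without vehicle replicate 3 (0.22, adjusted p = 0.0107) and with the GC trend removed (0.34, adjusted p = 0.0307).

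DNAJB9 (chromosome 7, 108569568 to 108574850, plus strand), also called ERdj4, is a J-domain partner of BiP that returns IRE1 to its inactive form. It was at 10.3, 12.6, 4.08 and 13.0 CPM in the vehicle libraries and 14.8, 17.1, 15.4 and 16.1 CPM in the TP-472 libraries. The TP-472 libraries were all higher, but vehicle replicate 3, with 141 counts, was at -1.55 on the log2 scale relative to the mean of the other vehicle libraries. Leaving that library out lowered the estimate and narrowed its error. The log2 fold change was 0.66 ± 0.308 (SE, adjusted p = 0.118, edgeR) with it and 0.41 (adjusted p = 0.00736) without it. With the GC trend removed, all 8 libraries gave 0.57 (adjusted p = 0.0439).

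CRELD2 (chromosome 22, 49918167 to 49927540, plus strand), a secreted and ER-resident protein with isomerase activity, was at 18.3, 19.7, 24.7 and 21.0 CPM with vehicle and 23.8, 24.4, 23.4 and 20.2 CPM with TP-472. The groups overlapped, with vehicle replicate 3 the highest of all 8. The log2 fold change was 0.13 ± 0.128 (SE, adjusted p = 0.426, edgeR), and 0.22 without vehicle replicate 3 (adjusted p = 0.0535). It passed with the GC trend removed (0.27, adjusted p = 0.0324).

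**Figure D2:**
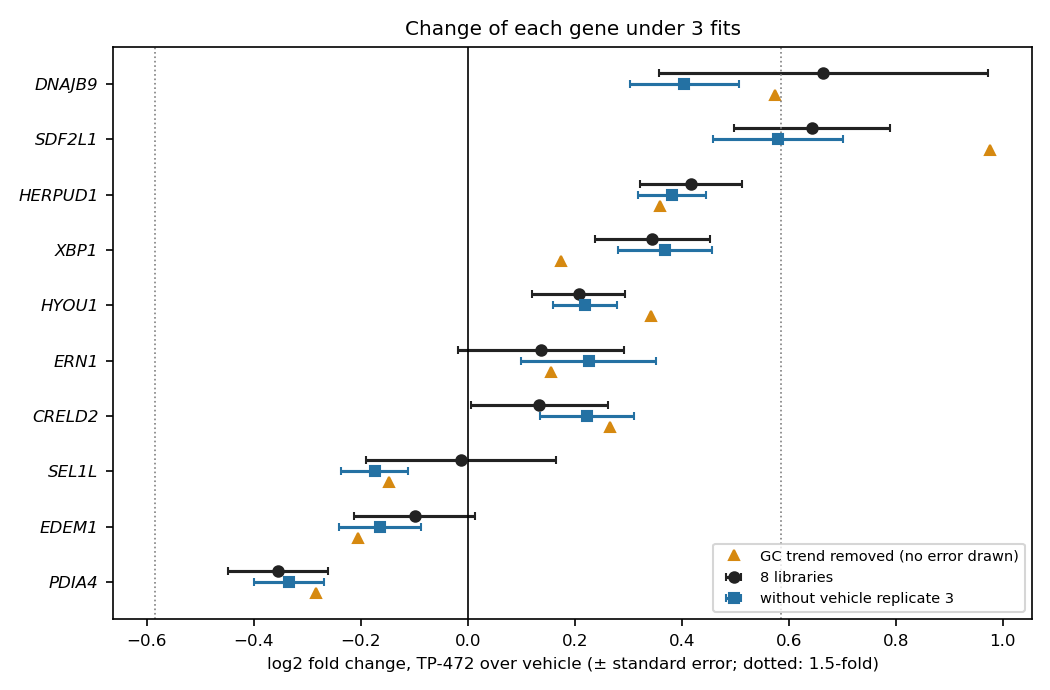
Log2 fold change of each gene, TP-472 over vehicle, with all 8 libraries (circles ± SE), without vehicle replicate 3 (squares ± SE) and with the GC trend removed (triangles); dotted lines mark 1.5-fold. DNAJB9 and SEL1L move with vehicle replicate 3, and removing the GC trend moves XBP1 to 0.17, SDF2L1 to 0.98, HYOU1 to 0.34, CRELD2 to 0.27, SEL1L to -0.15 and EDEM1 to -0.21.

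Among the 3 genes of ER-associated degradation, HERPUD1 rose and the other 2 did not pass the test (17.2% of all tested genes rose and 19.1% fell). HERPUD1 (chromosome 16, 56932048 to 56944863, plus strand), a membrane protein that organizes the ubiquitin ligase complex, was at 41.5, 40.6, 37.2 and 41.6 CPM in the vehicle libraries. With TP-472 it was at 51.7, 56.7, 56.2 and 50.3 CPM. All TP-472 libraries were higher, and both groups were tight. The mean was 40.2 ± 2.06 CPM with vehicle and 53.7 ± 3.18 CPM with TP-472 (SD, n = 4 each), and the log2 fold change was 0.42 ± 0.0948 (SE, adjusted p = 0.00987, edgeR). It was 0.38 with an adjusted p of 0.000747 without vehicle replicate 3, and it passed in 19 of 21 alternative fits.

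SEL1L (chromosome 14, 81471549 to 81533861, minus strand), the adaptor that holds the HRD1 ligase complex together, was at 92.0, 94.9, 53.5 and 91.5 CPM with vehicle and 79.1, 78.9, 81.8 and 89.2 CPM with TP-472. Vehicle replicate 3 was far below the rest, and the other vehicle libraries were all above the TP-472 libraries. The log2 fold change was -0.013 ± 0.177 (SE, adjusted p = 0.960, edgeR) with all libraries and -0.17 (adjusted p = 0.0358) without vehicle replicate 3. With all libraries and the GC trend removed it was -0.15 (adjusted p = 0.0713). EDEM1 (chromosome 3, 5187646 to 5219957, plus strand), a mannosidase-like lectin that marks misfolded glycoproteins for degradation, was at 85.7, 74.7, 64.8 and 74.8 CPM with vehicle. Its TP-472 libraries had 68.3, 68.5, 65.9 and 77.2 CPM. The groups overlapped, and the log2 fold change was -0.099 ± 0.112 (SE, adjusted p = 0.505, edgeR). It was -0.16 without vehicle replicate 3 (adjusted p = 0.0955), -0.029 without vehicle replicate 1 (adjusted p = 0.857), and passed as lower with the GC trend removed (-0.21, adjusted p = 0.0316).

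**Figure D3:**
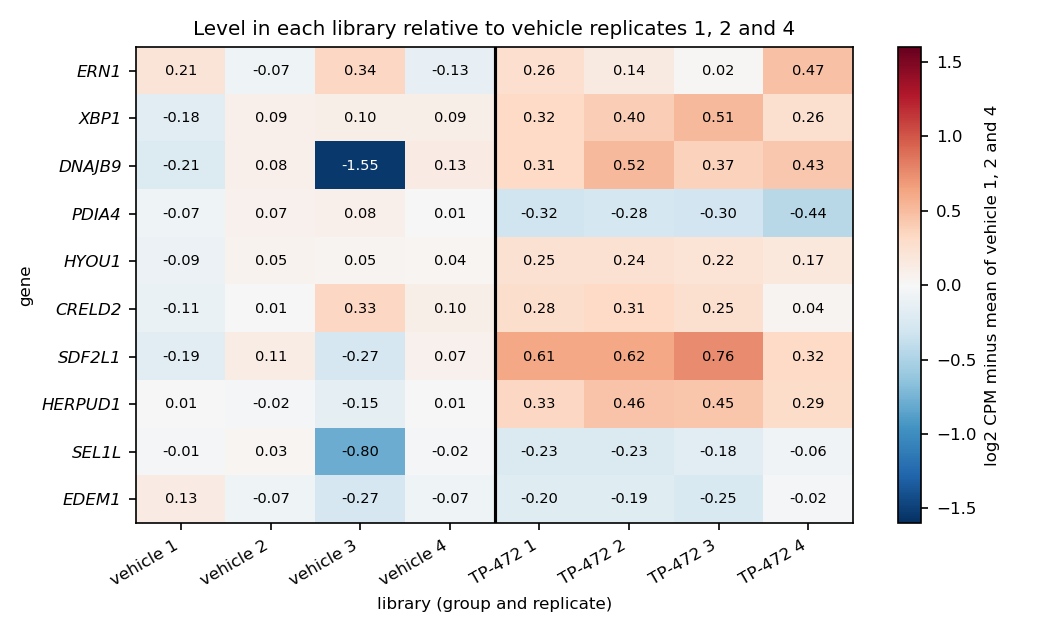
Log2 level of each gene (rows) in each library (columns) minus the mean of vehicle replicates 1, 2 and 4, with the value printed in each cell. The vehicle replicate 3 column holds the extreme cells, -1.55 for DNAJB9 and -0.80 for SEL1L, while the TP-472 columns are positive for SDF2L1 (0.32 to 0.76) and HERPUD1 (0.29 to 0.46) and negative for PDIA4 (-0.44 to -0.28).

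Levels without overlap between the groups were found for 6 of the 10 genes, 5 higher with TP-472 (XBP1, DNAJB9, HYOU1, SDF2L1 and HERPUD1) and 1 lower (PDIA4). Over all tested genes, 45.4% did not overlap, 23.8% higher and 21.6% lower. For each of the 6 the exact permutation test of the group means, two-sided, gave p = 0.0286, the smallest that 4 against 4 libraries allows. Among the 4 genes with overlapping levels the same exact test gave p from 0.314 (CRELD2) to 0.943 (SEL1L).

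Compared per length, PDIA4 stood far above the rest. The length was that of all annotated exons of a gene joined, which can exceed the transcript expressed. It was 5.155 kilobases for HERPUD1 and 1.099 for SDF2L1, so the order and overlaps between genes depend on the annotation. In the vehicle libraries PDIA4 had 80.0 ± 3.86 CPM per kilobase of annotated exon (SD, n = 4), followed by XBP1 at 20.3 ± 1.83 and HYOU1 at 18.4 ± 0.855, whose ranges overlapped. EDEM1 at 11.1 ± 1.26, SDF2L1 at 8.92 ± 1.15, SEL1L at 8.68 ± 2.06 and HERPUD1 at 7.80 ± 0.399 CPM per kilobase formed a run in which each gene overlapped the next. CRELD2 at 4.05 ± 0.530 overlapped DNAJB9 at 3.53 ± 1.46, which overlapped ERN1, the lowest, at 1.30 ± 0.201 CPM per kilobase. The overlaps of EDEM1 with SDF2L1, SEL1L with HERPUD1 and DNAJB9 with ERN1 rested on vehicle replicate 3. Without it, EDEM1 stood above SEL1L and SDF2L1, which overlapped each other, both stood above HERPUD1, and ERN1 stood below all the rest. With TP-472 the order of the highest 3 and of the lowest gene was kept, and HERPUD1 with EDEM1 was the pair of neighbors that overlapped. PDIA4 then had 62.6 ± 3.12 CPM per kilobase and XBP1 25.8 ± 2.0.

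The unequal changes were visible within each library. The ratio of HERPUD1 to PDIA4 was 0.136 to 0.169 in the vehicle libraries and 0.249 to 0.268 in the TP-472 libraries. The ratio of SDF2L1 to PDIA4 was 0.0310 to 0.0413 with vehicle and 0.0668 to 0.0826 with TP-472. These ratios do not depend on the scaling between libraries, and the genes in them were chosen after their values were seen. The ratio of XBP1 to ERN1 overlapped, at 3.5 to 5.33 with vehicle and 3.92 to 6.44 with TP-472, as did that of HERPUD1 to SEL1L, at 0.427 to 0.696 and 0.564 to 0.718. The overlap of HERPUD1 to SEL1L rested on vehicle replicate 3, without which the vehicle ratios ended at 0.454.

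Some of these genes overlap others. Exons of DNAJB9 share 183 bases with THAP5 and 99 bases with PNPLA8 on the opposite strand, those of HYOU1 share 666 with the antisense gene AP003392.3, those of EDEM1 share 653 with AC026202.3, and those of CRELD2 share 168 with ALG12. The methods call the libraries strand-specific, but the labels and the methods name different library kits. The use of strand in counting was not settled here, so reads from these stretches cannot be assigned with certainty.

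A list of 10 genes held other sensors and transcription factors of the ER membrane, and the proteases MBTPS1 and MBTPS2 that cut some of them. Of these 10 genes, 9 were tested, 5 fell and 1 rose, where 19.1% and 17.2% of all tested genes did so. The median log2 fold change was -0.57. Without vehicle replicate 3 there were 7 that fell and 1 that rose (28.4% and 28.6% of all tested genes). CREB3L1, a membrane-bound factor of collagen-secreting cells, was at 44.5, 16.7, 156.2 and 18.1 CPM with vehicle and at 5.82, 4.68, 4.61 and 7.03 CPM with TP-472. All TP-472 libraries were lower, although the vehicle libraries were widely spread. Its log2 fold change was -3.41 (adjusted p = 0.00714, edgeR) and was -2.25 (adjusted p = 0.000362) without vehicle replicate 3. CREB3L2, its close relative, fell, and its log2 fold change was -1.27 (adjusted p = 0.0125). ATF6B fell by 1.11, CREB3L4 by 0.88 and MBTPS1, a protease that cuts ATF6, by 0.57 on the log2 scale. Without vehicle replicate 3 the log2 fold change of ATF6B was -0.72. MBTPS2, the other protease of the list, had -0.54 (adjusted p = 0.0893, edgeR; -0.62 with 0.0340 without vehicle replicate 3). CREB3, also called LUMAN, was the gene that rose, by 0.75 on the log2 scale (adjusted p = 0.0237). ATF6 itself, a main sensor, had -0.17 (adjusted p = 0.348; -0.30 with 0.00173 without vehicle replicate 3), and EIF2AK3, which encodes PERK, had 0.14 (adjusted p = 0.491; 0.015 without vehicle replicate 3). ERN2, the IRE1 paralog of mucosal epithelium, was at most 0.225 CPM and was not tested.

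Among 24 other ER chaperones and folding enzymes, 5 rose, 1 fell and 18 did not pass, where 17.2% of all tested genes rose and 19.1% fell, and the median log2 fold change was 0.16. Without vehicle replicate 3, 10 rose and 3 fell, where 28.6% and 28.4% of all tested genes did so. The classical chaperones HSPA5, HSP90B1 and CALR did not pass. HSPA5, which encodes BiP, was at 317.0, 218.7, 331.9 and 215.3 CPM with vehicle and 263.3, 269.0, 271.3 and 329.7 CPM with TP-472, so the TP-472 libraries lay within the vehicle range. Its log2 fold change was 0.066 ± 0.171 (SE, adjusted p = 0.781, edgeR; 0.18 without vehicle replicate 3). HSP90B1, the ER member of the HSP90 family, had 0.028 (adjusted p = 0.920) and CALR, the lectin chaperone calreticulin, had -0.011 (adjusted p = 0.954), where these p-values do not show that the levels were equal. Both signs turned without vehicle replicate 3, to -0.15 for HSP90B1 and 0.082 for CALR (adjusted p = 0.114 and 0.511). MANF, a secreted ER stress protein, rose by 0.71 (adjusted p = 0.00498) and DNAJB11, the J-domain protein ERdj3, by 0.70 on the log2 scale (adjusted p = 0.0392). TXNDC5, DNAJC3 and DNAJC10 also rose. SIL1, a nucleotide exchange factor of BiP, fell, and its log2 fold change was -0.72 (adjusted p = 0.00684).

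In ER-associated degradation beyond the 3 genes above, 7 of 26 rose, 2 fell and 17 did not pass (17.2% and 19.1% of all tested genes rose and fell), with a median log2 fold change of 0.17. Without vehicle replicate 3, 11 rose and 5 fell, beside 28.6% and 28.4% of all tested genes. SELENOS, a selenoprotein that recruits the p97 ATPase to the membrane, was at 18.9, 22.0, 16.2 and 23.6 CPM with vehicle and 35.6, 39.7, 42.2 and 36.9 CPM with TP-472, without overlap. Its log2 fold change was 0.94 ± 0.139 (SE, adjusted p = 0.00148, edgeR). DERL1, a membrane channel component, rose by 0.65 on the log2 scale (adjusted p = 0.0230), and MAN1B1, a mannosidase that trims glycoproteins for disposal, had -0.79 (adjusted p = 0.00653). SYVN1, the HRD1 ligase that SEL1L serves, had -0.28 (adjusted p = 0.550; 0.22 without vehicle replicate 3), and DERL3 had -0.17 (adjusted p = 0.702; 0.20 without vehicle replicate 3), so the sign of both turned with that library.

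Genes for translocation into the ER and transport out of it included 10 of 24 that rose and 3 that fell, beside 17.2% and 19.1% of all tested genes, with a median log2 fold change of 0.36. Without vehicle replicate 3 there were 15 and 5 (28.6% and 28.4% of all tested genes), with a median of 0.22. SEC11C, a catalytic subunit of the signal peptidase, was at 10.9, 15.98, 4.72 and 14.8 CPM with vehicle and 34.04, 37.2, 38.6 and 32.4 CPM with TP-472. SRPRB, a subunit of the receptor for the signal recognition particle, was at 54.8, 67.0, 38.04 and 62.8 CPM with vehicle and 130.3, 139.4, 142.1 and 129.1 CPM with TP-472. Neither overlapped between the groups, and vehicle replicate 3 was the lowest library for both. The log2 fold changes were 1.62 for SEC11C (adjusted p = 0.00555, edgeR) and 1.28 for SRPRB (adjusted p = 0.000904). SEC24D, a coat protein of vesicles that leave the ER, had -0.71 (adjusted p = 0.00118) and KDELR1, which returns escaped ER proteins, had -0.60 (adjusted p = 0.0487; -0.32 without vehicle replicate 3).

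**Figure D4:**
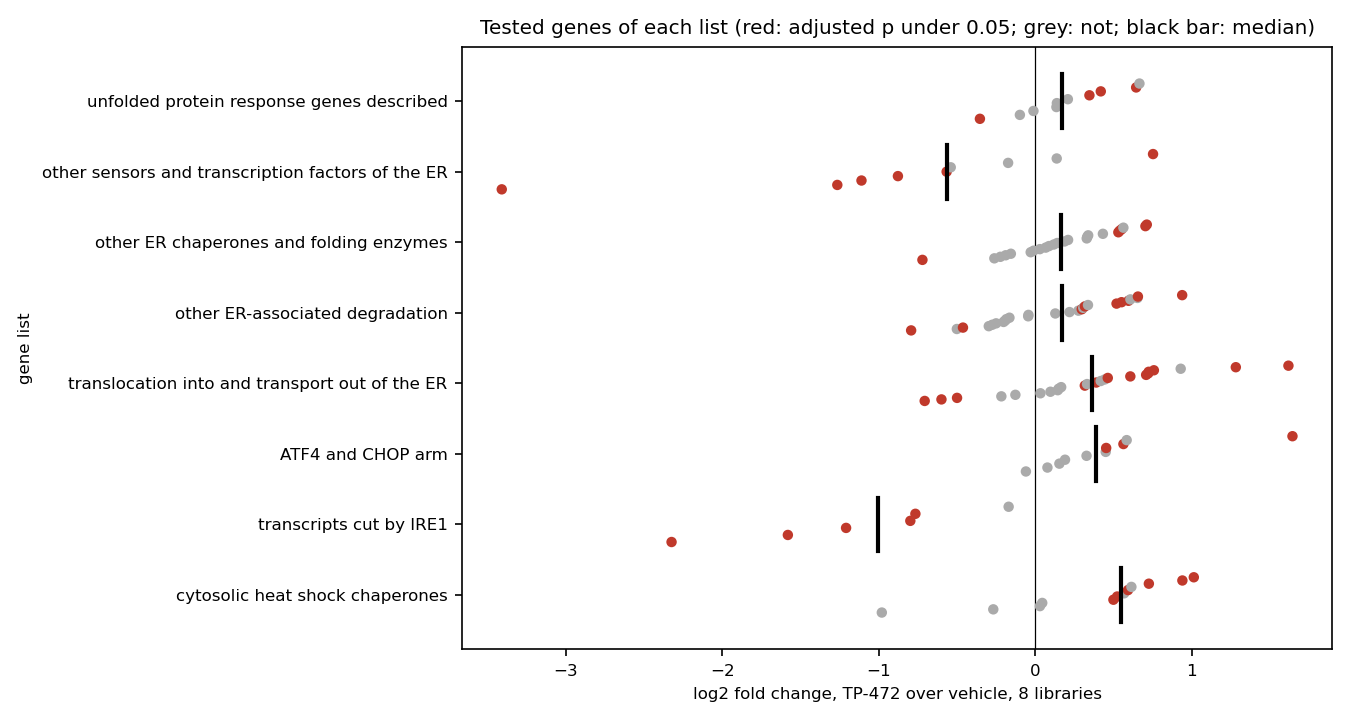
Log2 fold change, TP-472 over vehicle with all 8 libraries, of every tested gene in the 10 unfolded protein response genes and 7 pathway lists (marker lists are not drawn), 1 point per gene, red where the adjusted p was under 0.05, with a black bar at the list's median. The medians drawn run from -1.0 for transcripts known to be cut by IRE1 to 0.54 for cytosolic heat shock chaperones, with the 10 unfolded protein response genes at 0.17.

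The PERK arm and its neighbors complete the pathway. Of 10 genes of the ATF4 and CHOP arm, 3 rose and none fell (median log2 fold change 0.39), where 17.2% of all tested genes rose and 19.1% fell. Without vehicle replicate 3, 7 rose and none fell, where 28.6% and 28.4% of all tested genes did so. ATF4, the transcription factor favored by PERK, was at 195.8, 252.3, 183.3 and 253.5 CPM with vehicle and 301.1, 320.5, 318.3 and 270.7 CPM with TP-472, a log2 fold change of 0.45 (adjusted p = 0.0313, edgeR). DDIT3, which encodes CHOP, had 0.56 (adjusted p = 0.0241). ATF3, a stress-induced factor, was at 5.66 to 7.35 CPM with vehicle and 19.6 to 22.9 CPM with TP-472, a log2 fold change of 1.64 (adjusted p = 8.38e-05). The ATF4 arm also answers stresses outside the ER.

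Transcripts that IRE1 is known to cut in stressed cells are lowered by that cutting. Of 6 such genes, 5 fell, beside 19.1% of all tested genes, and BLOC1S1, the most widely used of them, had -0.17 (adjusted p = 0.400, edgeR). The median log2 fold change was -1.0, and -0.73 without vehicle replicate 3, with 5 that fell in both fits, where 28.4% of all tested genes fell in the latter. PDGFRB, a growth factor receptor, was at 13.8, 10.7, 22.4 and 10.5 CPM with vehicle and 3.52, 2.62, 2.77 and 2.54 CPM with TP-472, a log2 fold change of -2.33 (adjusted p = 0.000446). COL6A1, a collagen chain, was at 66.1, 57.2, 162.3 and 55.2 CPM with vehicle and 28.7, 29.8, 27.9 and 27.5 CPM with TP-472 (log2 fold change -1.58, adjusted p = 0.00753; -1.06 without vehicle replicate 3). PDGFRB, COL6A1 and SPARC are also genes of mesenchymal cells. Of 6 mesenchymal markers 4 were tested: COL1A1 and COL3A1 fell, FN1 rose by 1.16 on the log2 scale (adjusted p = 0.00339), and VIM, the most abundant, had -0.41 (adjusted p = 0.0983; -0.21 with 0.0394 without vehicle replicate 3). Their summed level was 2643 to 4009 CPM with vehicle and 2008 to 2144 CPM with TP-472, and their part in the result was not tested. Levels of the 6 transcripts cannot tell cutting from lower transcription.

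Chaperones of the cytosol, which the unfolded protein response of the ER does not chiefly control, gave 6 of 12 tested genes that rose and none that fell, beside 17.2% and 19.1% of all tested genes (median log2 fold change 0.54). The list also holds the mitochondrial chaperonins HSPD1 and HSPE1. Without vehicle replicate 3, 9 rose and 1 fell, beside 28.6% and 28.4%. HSPA8, the constitutive HSP70, was at 1743, 2167, 1288 and 2188 CPM with vehicle and 3625, 3907, 3962 and 3404 CPM with TP-472, a log2 fold change of 1.01 (adjusted p = 0.00360, edgeR). DNAJA1, its J-domain partner, had 0.94 (adjusted p = 0.0182). HSPA8 and DNAJA1 showed no overlap between the groups.

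The promoter motifs were set against the changes of other genes. Of the 5 unfolded protein response genes with ERSE or ERSE-II printed above, XBP1, HERPUD1 and SDF2L1 rose, HYOU1 had a log2 fold change of 0.21 (adjusted p = 0.0898, edgeR) and CRELD2 had 0.13 (adjusted p = 0.426). Of the other 5, which held neither motif in the window, PDIA4 fell. DNAJB9 had a log2 fold change of 0.66 (adjusted p = 0.118, and 0.41 with 0.00736 without vehicle replicate 3). ERN1 had 0.14 (adjusted p = 0.502) and EDEM1 had -0.099 (adjusted p = 0.505). SEL1L had -0.013 (adjusted p = 0.960, and -0.17 with 0.0358 without vehicle replicate 3). Among 24 other tested genes with either motif, 5 rose and 5 fell, 20.8% each, beside 17.2% and 19.1% of all tested genes, and their median log2 fold change was 0.0084.

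The genes whose pattern over the 8 libraries was most like 3 of the genes were found by the root mean square difference of centered log2 CPM. For XBP1 they were SRSF2 (0.0388), NDUFB10, DGUOK, NABP2 and MRPL30, where the median gene was at 0.357. For HERPUD1 they included SRA1 (0.0457), OGFOD1, RNF19B and EIF2B4 (median gene 0.343), and for HYOU1 TRAFD1 (0.0228), PGD, WRNIP1, AFG3L2 and TCTN3 (median gene 0.324). None of the genes named belongs to the pathway lists used here.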

How the data were processed

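RNA-seq was measured in 8 SK-UT-1 libraries, 4 vehicle and 4 TP-472. The authors deposited estimated counts per gene from salmon 1.4.0 on GRCh38, summed by gene with GENCODE 34; values that are not whole were rounded here. Genes over 1 CPM in at least 4 libraries were tested with edgeR 4.0.16 (TMM, quasi-likelihood F test, R 4.3.3), and p-values were adjusted by Benjamini-Hochberg over all 14073 genes. A standard error is the log2 fold change divided by the square root of F. The script was tested on simulated data. It recovered 4 of 83 genes changed by 1.5-fold, 40 of 70 changed by 2-fold and 47 of 47 changed by 4-fold. There were 6 false calls among 13873 unchanged genes. Only 200 genes were changed in the simulation, whereas 5102 passed the adjusted p limit in the data. The adjustment was therefore stricter in the simulation, and its shares do not give the power of the test in the data. Alternatives used DESeq2 1.42.0, limma 3.58.1 (voom), other scalings and filters, a replicate block, removal of the GC trend (loess span 0.5) and leaving out each library. Positions come from GENCODE 29 and promoters from RefSeq. Strand use in counting is not given in the sources used here.

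The members and lists were chosen with earlier results of these data known. Named were the 10 genes, 10 fixed ER factors (HSPA5, HSP90B1, CALR, ATF6, EIF2AK3, ATF4, DDIT3, SYVN1, DERL3 and CREB3L1), up to 2 differentially expressed genes with the largest increase and 2 with the largest decrease per list, and the 5 genes over 5 CPM most like XBP1, HERPUD1 and HYOU1, of which 1 is not reported here. Other genes (ERN2, CREB3L4, ATF6B, MBTPS1, MBTPS2, TXNDC5, DNAJC3, DNAJC10, BLOC1S1, SPARC, HSPD1, HSPE1 and the markers) were named after their values were seen.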

Additional observations from a re-analysis of the deposited data

Results flagged for a closer look

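Within groups of 4, the gap of the extreme library to its neighbor was over Dixon's limit in 11 of 74 groups over 37 named genes, where chance gives about 1 in 20. Vehicle replicate 3 was that library in 6 of the 11. Among the unfolded protein response genes, SEL1L was at 53.5 CPM in vehicle replicate 3 and 91.5 to 94.9 CPM in the others. XBP1 was at 53.2 CPM and HYOU1 at 131.6 CPM in vehicle replicate 1, where the others had 64.0 to 64.6 and 143.9 to 145.4 CPM. Vehicle replicate 3 was also the highest for SIL1 (21.4 CPM), MAN1B1 (115.6 CPM), KDELR1 (148.1 CPM), COL6A1 (162.3 CPM) and DDIT3 (28.98 CPM). TP-472 replicate 4 was the highest for CREB3L2 (26.5 CPM), SEC24D (43.2 CPM) and HSPA5 (329.7 CPM).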

How the results depend on the processing

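With all 8 libraries, 3789 genes were differentially expressed (1693 higher, 2096 lower). Leaving out 1 library gave 2690 to 4223 (1303 to 1824 higher, 1387 to 2399 lower, the lowest without TP-472 replicate 3). DESeq2 gave 2695 higher, but that fit tested 23270 genes beside 14073 in the main fit. Without a filter, edgeR gave 2393 higher over 33192 genes. Of the 10 unfolded protein response genes, 1 was differentially expressed, 2 with the replicate block and GC trend removed, 4 at the adjusted p alone, and 0 to 1 with a library left out (0 without vehicle replicate 3 or TP-472 replicate 3). At the adjusted p limit 3 were higher and 1 lower. These were 1 and 0 without a filter, 1 and 0 with the replicate block, 5 and 2 with the GC trend removed, 3 and 0 with both, and 2 to 5 and 0 to 2 with a library left out. The highest of each came without vehicle replicate 3, and 0 lower without TP-472 replicate 1 or replicate 3. Over all tested genes, 17.2% rose and 19.1% fell in the main fit, and 28.6% and 28.4% without vehicle replicate 3. That share at the adjusted p limit is not given for the other fits, so their counts have no background beside them. At both limits, all genes gave 5090 calls without a filter, 3965 with the GC trend removed and 3704 with the block as well. Same-numbered libraries did not deviate together (correlations of deviations -0.055, 0.12, -0.17 and -0.18), so the replicate block shares only a number. Under the block the call was lost for XBP1 (0.35, adjusted p = 0.0929), PDIA4 (-0.35, adjusted p = 0.0852) and HERPUD1 (0.42, adjusted p = 0.0605), and the count over all genes was 3055. SEL1L turned sign with limma-voom (0.023), with the block (0.021) and in 4 of the fits with a library left out (-0.17 to 0.058 over all 8). The other 9 genes kept their sign in all 21 alternatives. SDF2L1 passed the adjusted p limit in all of them (0.58 to 1.08) but was under 1.5-fold without vehicle replicate 3 or TP-472 replicate 3, and HERPUD1 lost it without a filter (adjusted p = 0.0552) and under the block. The causes were not tested. No scaling moved the median of all genes by over 0.1.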
